A study of Mus musculus with 35 samples.

Results

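Heat shock proteins and their partners keep other proteins folded, and 44 of their genes were followed here among the 35976 gene symbols counted in 2 tissues, medulla and cervical spinal cord (below, cord), of a mouse model of spinocerebellar ataxia type 7 (SCA7). The members are named genes, namely the Hsp70, Hsp90, small heat shock protein, J-domain, chaperonin and co-chaperone genes that bear on the folding of polyglutamine proteins. All 44 symbols had reads. SCA7 mice carry the SCA7 266Q/5Q genotype, in which an ataxin-7 gene with a long CAG repeat was knocked in at its own locus, so that every cell type can express the expanded protein. They were compared with wild-type (WT) littermates, and the mice are C57Bl/6J by the series' design. The labels name no treatment. There were 35 RNA-seq libraries from 18 mice. At 9 weeks, 5 WT and 5 SCA7 mice each gave 1 medulla and 1 cervical spinal cord library. The 5-week set held 2 WT and 2 SCA7 mice for both tissues, and the set from P8 (postnatal day 8) 2 SCA7 mice for both tissues, 2 WT medullas and 1 WT cervical spinal cord. Whole tissue was used, so fewer cells of a type and less RNA per cell cannot be told apart in any value given here.

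Total counts fell into separate ranges. In 15 deep libraries they ran from 28969003 to 99353286 and in 20 shallow libraries from 95917 to 396417. The members held 200384 to 795022 counts in a deep library but 681 to 2588 in a shallow one, so the shallow libraries resolve the abundant members only. A count of 0 allows up to 31.3 CPM (counts per 1000000 counts) in the smallest shallow library and up to 0.104 in the smallest deep library, for counting error alone. Each 9-week group had 2 deep and 3 shallow libraries. At 5 weeks in the medulla, every WT library was deep and every SCA7 library shallow, and genotype and depth cannot be told apart. Medulla SCA7 replicate 2 stood apart, with 59.0% of its counts from mitochondrial genes against 3.48% to 34.9% in the other 9-week libraries. At 9 weeks no gene of the astrocyte, oligodendrocyte, microglia, neuron and motor neuron marker lists was at 0 across a group, so the defining cells of both tissues were seen. Levels below are CPM after TMM scaling over all libraries, changes are log2 ratios from edgeR's quasi-likelihood test with their standard error (SE), and a gene is called changed where the p-value adjusted over all genes tested is under 0.05.

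Chaperones work in relays. Hsp70 binds exposed stretches of unfolded protein, J-domain proteins bring it its clients and start its ATP cycle, and Hsp110 proteins such as Hsph1 release the spent nucleotide and, with a J-domain partner, help to take aggregates apart. Hsp90 finishes the folding of signalling proteins with help from Stip1, Ahsa1 and Chordc1, small heat shock proteins hold unfolded clients in reserve, and the chaperonin TRiC encloses actin, tubulin and others in a barrel. When unfolded protein builds up, the factor Hsf1 binds heat shock elements in the promoters of many of these genes, while stress of the endoplasmic reticulum acts through its own promoter element. Polyglutamine proteins are well known clients of this network.

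Those promoter elements were searched for near the starts of the members, and the matched sequences are shown. RefSeq windows of 300 bases (250 before the start and 50 after it, GRCm38.p6) matched 35 of the 44 members. The heat shock element searched was GAANNTTCNNGAA on either strand, where N is any base. It was in a window of 5 of the 35 members (14.3%) and of 179 of all 27025 genes with a window (0.662%). The element of the endoplasmic reticulum stress response, CCAAT and CCACG with 9 bases between, was in 3 members (8.57%) and in 37 of all genes (0.137%). Its 3 members, Hspa5, Hsp90b1 and Dnajc3, are all endoplasmic reticulum chaperones. The windows of Hspa1a, Hspa1b, Dnajb1, Hspb1 and Bag3 held no match to the heat shock element as searched. A match is a description of letters in this window, not a shown binding site. Lack of a match to this strict pattern likewise does not show that Hsf1 leaves a gene unbound. Stretches of 30 bases around the matches follow, 5′ to 3′ on the strand of the gene, with the matched bases in capitals (overlapping matches run together).
Hsph1, 1 match, chr5:149636287-149636316, minus strand, within the transcribed part after the RefSeq start: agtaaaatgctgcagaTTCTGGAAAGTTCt
Chordc1, 3 overlapping matches, chr9:18292259-18292288, plus strand, across the start: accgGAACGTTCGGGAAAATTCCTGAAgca
Dnajb6, 1 match, chr5:29735843-29735872, plus strand: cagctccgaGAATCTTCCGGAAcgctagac
Hspe1, 2 overlapping matches, chr1:55088053-55088082, plus strand: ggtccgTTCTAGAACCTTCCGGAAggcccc
Hspd1, the same bases read on the other strand, chr1:55088053-55088082, minus strand: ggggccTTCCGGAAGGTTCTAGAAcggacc
Hsp90b1, first of 2 matches in its window, chr10:86705633-86705662, minus strand: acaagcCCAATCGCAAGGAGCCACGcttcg
Dnajc3, chr14:118937821-118937850, plus strand: ccacaaCCAATCAGCGCCAACCACGacccg
Hspe1 and Hspd1, the lid and the barrel of the mitochondrial chaperonin, start back to back from 1 shared promoter. The 250 bases before the Hspe1 start (chr1:55087898-55088147, plus strand) hold the pair of matches, and the 250 bases before the start of Hspa5 (chr2:34771840-34772089, plus strand), the main chaperone of the endoplasmic reticulum, hold its element.
Hspe1: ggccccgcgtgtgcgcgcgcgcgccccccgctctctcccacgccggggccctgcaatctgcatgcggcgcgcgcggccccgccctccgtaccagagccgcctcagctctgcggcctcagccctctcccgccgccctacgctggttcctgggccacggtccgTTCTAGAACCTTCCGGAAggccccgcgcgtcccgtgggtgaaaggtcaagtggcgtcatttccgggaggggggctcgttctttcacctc
Hspa5: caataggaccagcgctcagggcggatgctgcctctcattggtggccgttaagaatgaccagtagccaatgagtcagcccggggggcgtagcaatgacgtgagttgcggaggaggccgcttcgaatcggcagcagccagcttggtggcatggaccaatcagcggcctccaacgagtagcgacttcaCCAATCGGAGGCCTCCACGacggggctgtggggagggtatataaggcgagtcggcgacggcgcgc

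In healthy tissue the standing machinery dominated. Per kilobase of exon, in the deep 9-week WT medulla libraries, Hsp90ab1 (the constitutive cytosolic Hsp90) stood at 484 CPM and Hspa8 (the constitutive Hsp70) at 439. Hsp90aa1, the more inducible Hsp90, followed at 217, and Hsp90b1 of the endoplasmic reticulum at 115. The stress-inducible Hsp70 genes were at the other end of the scale, with 0.998 CPM per kilobase for Hspa1a and 0.563 for Hspa1b. On the same scale the cord gave 524 for Hsp90ab1, 418 for Hspa8, 1.57 for Hspa1a and 0.744 for Hspa1b. Constitutive Hsp70 mRNA, as counted, thus lay far above the inducible forms in both tissues, in these deep libraries. Only reads with a single location were kept, and Hspa1a and Hspa1b are 99.2% identical over 2201 bases. Their levels may thus be too low, by an amount that was not measured. Hspa8 has 6 near-identical copies of its own and Hsp90aa1 has 3, while none was found for Hsp90ab1. The levels of Hspa8 and Hsp90aa1 may likewise be too low.

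At 9 weeks, 1 of the 44 members was called changed in the medulla, where 6.97% of all 19157 genes tested were called. The cord likewise had 1 of 44, with 5.06% of 19263 genes called. It was Hsph1 in both tissues, and it fell. The members' median log2 change was 0.01 in medulla (all genes 0.08) and -0.09 in cord (all genes -0.02). At an unadjusted p under 0.05 there were 4 members in medulla, with 3817 of all 19157 genes, and 6 in cord, with 3274 of all 19263, so the members' share was the smaller in both. DESeq2 also called 1 member in each tissue, against 0.365% and 0.997% of all genes. The groups did not overlap for 1 member in medulla (Dnajc3, higher), with 2.04% of all genes, and for 3 in cord (Hsp90aa1 and Bag3 lower, Cct4 higher), with 2.16% of all genes.

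**Figure D1:**
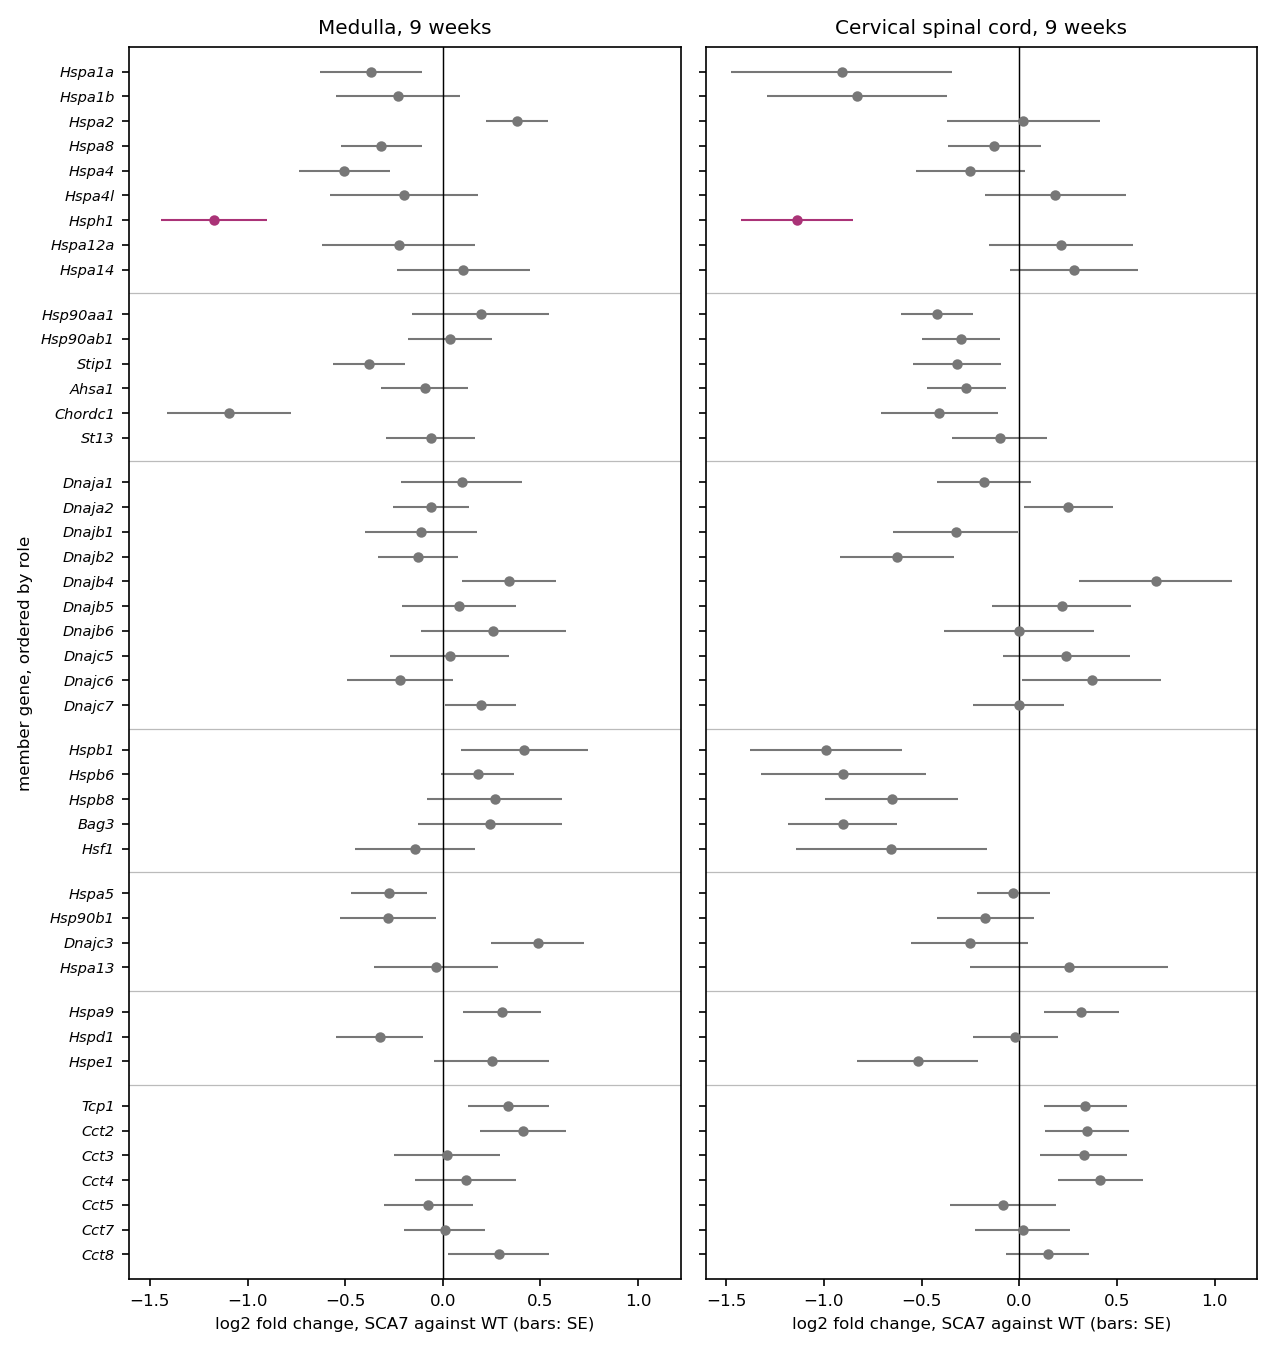
Log2 change of SCA7 against WT at 9 weeks (x axis, bars are the SE) for the 44 members ordered by role (y axis, role groups parted by lines), medulla on the left and cord on the right, 5 mice per genotype. Hsph1 is the coloured point in both panels, at -1.17 and -1.14, and all other members (grey) missed the threshold.

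Hsph1 (chr5:149616843-149636498, GRCm38) encodes the cytosolic Hsp110, a nucleotide exchange factor of Hsp70. In the medulla the 5 WT libraries had 236, 257, 204, 123 and 285 CPM in replicate order, and the 5 SCA7 libraries 83.8, 47.0, 72.8, 138 and 121. WT replicate 4 was low enough to lie under SCA7 replicate 4, and every other WT library lay above all SCA7 libraries. The means were 221 ± 62.0 (SD, n = 5) and 92.5 ± 36.7 (SD, n = 5), a fall of 1.17 on the log2 scale (SE 0.27, edgeR adjusted p = 0.0188). In the cord, WT libraries had 224, 289, 350, 120 and 316 CPM and the SCA7 libraries 138, 79.0, 68.9, 160 and 133. Again WT replicate 4, from the same mouse as the low medulla library, was the exception and lay among the SCA7 libraries. The means were 260 ± 90.7 (SD, n = 5) and 116 ± 39.9 (SD, n = 5), and the fall was 1.14 (SE 0.29, edgeR adjusted p = 0.0304).

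The cord change of Hsph1 differed from the medulla change by 0.07 (SE 0.29), with the mouse as a block, and edgeR did not call the difference. Among the deep libraries, where Hsph1 had 4196 to 11482 counts, the medulla values were 257 and 285 in WT against 138 and 121 in SCA7, and the cord values 224 and 316 against 160 and 133. Deep libraries alone gave a log2 change of -1.09 for medulla (edgeR adjusted p = 0.000679) and -0.86 for cord (edgeR adjusted p = 0.263). Shallow libraries alone gave -1.46 (edgeR adjusted p = 0.369) and -1.48 (edgeR adjusted p = 0.0248). The sign was negative in all 23 alternatives that tested Hsph1 for medulla (18 of them called it) and in all 24 for cord (15 called it). Without medulla WT replicate 2 the edgeR adjusted p was 0.0632, and without WT replicate 5 it was 0.063. For cord it was 0.0617 without WT replicate 2, 0.0698 without WT replicate 3, and 0.0701, 0.0671 and 0.101 without SCA7 replicates 2, 3 and 5. Library totals in place of TMM scaling kept the signs (-1.18 and -0.82) and lost both calls (edgeR adjusted p 0.166 and 0.197). In the cord they moved the median of all genes from -0.02 to 0.28, and 468 of the 852 genes called were then higher, against 292 of 974 with TMM scaling.

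**Figure D2:**
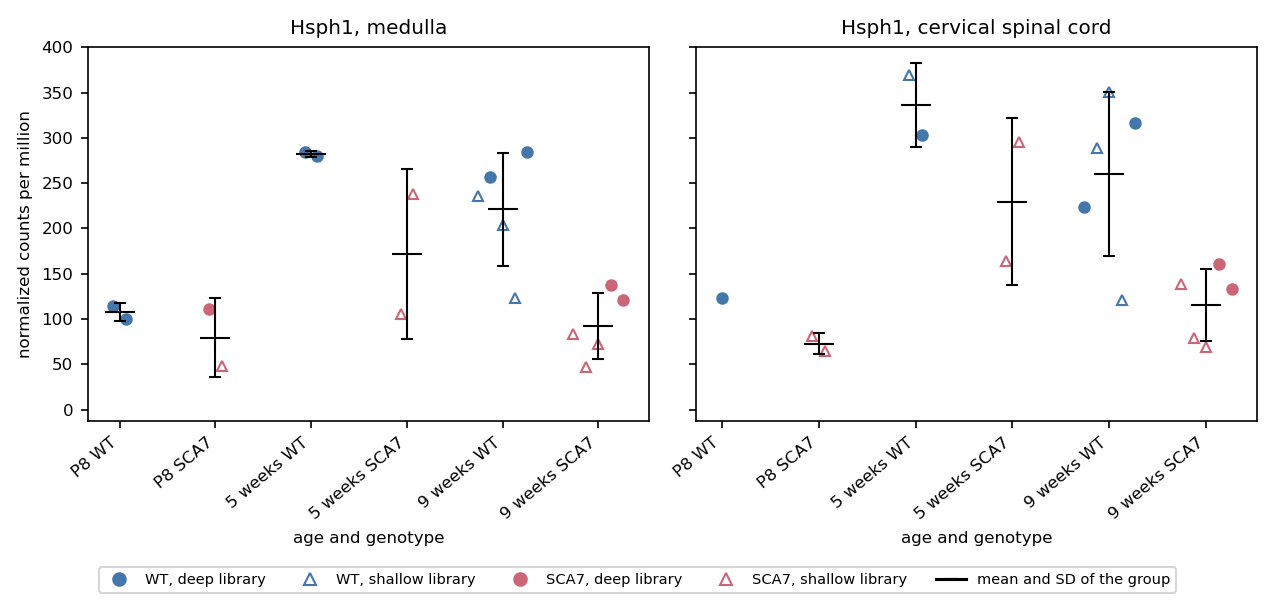
Hsph1 level (y axis, normalized CPM) in each library by age and genotype (x axis), medulla left and cord right, with filled circles for deep and open triangles for shallow libraries and the group's mean and SD where there is more than 1 library. At 9 weeks the SCA7 libraries lie between 47.0 and 160 CPM, near the P8 libraries (48.5 to 123), while all 9-week WT libraries but replicate 4 lie at 204 or above.

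Other measures also differed between the genotypes at 9 weeks. Rbm3 and Cirbp, RNA-binding protein genes whose expression climbs when cells cool, rose in both tissues. Rbm3 rose by 1.69 on the log2 scale in medulla and 1.57 in cord (edgeR adjusted p 0.00258 and 0.00481), and Cirbp by 1.21 and 1.06 (edgeR adjusted p 0.0083 and 0.0124). They were 2 of the 5 cold-inducible genes listed, and the other 3 were not called in either tissue. The summed level of that list ran from 648.2 to 799.9 CPM in SCA7 medulla against 326.5 to 535.6 in WT medulla, and from 675.5 to 870.3 in SCA7 cord against 400.4 to 575.7 in WT cord. Astrocyte markers fell in 8 of 15 genes in medulla and 7 of 15 in cord, with summed levels of 2972 to 4449 CPM in SCA7 medulla against 6374 to 8279 in WT, and of 3632 to 4860 in SCA7 cord against 7443 to 13050 in WT cord. Oligodendrocyte markers fell in 9 of 16 and 14 of 16 genes, with sums of 10360 to 37610 against 19560 to 45610 and of 16410 to 37110 against 34440 to 107400. Microglia markers fell in 3 of 12 and 2 of 12, and 0 of 15 neuron and 0 of 10 endothelial markers were called in either tissue. Of 8 motor neuron markers, Calca and Isl1 rose in medulla and 0 were called in cord. The share of mitochondrial counts in the cord was 21.0% to 34.9% in shallow WT libraries (highest in replicate 4) against 13.9% to 15.6% in shallow SCA7 ones, and 12.03% and 4.65% in deep WT libraries against 4.41% and 4.01% in deep SCA7 ones. In the deep medulla libraries it was 3.53% and 3.97% against 3.48% and 3.73%. Shallow medulla libraries had 20%, 19.83% and 18.78% in WT against 13.95%, 59.03% and 15.11% in SCA7. The genotypes did not overlap in the cold-inducible and astrocyte sums of either tissue. WT replicate 4, whose Hsph1 lay among the SCA7 libraries, thus lay with the other WT libraries in both sums. The part of temperature, of cell makeup and of the mitochondrial share in the Hsph1 values was not tested.

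The rest of the Hsp70 and Hsp110 group, 8 genes, had 0 called members in either tissue. Hspa8 had 1397, 1030, 1429, 1398 and 1070 CPM in WT medulla and 1081, 738, 1238, 978 and 972 in SCA7. The ranges overlapped and the change was -0.32 (SE 0.21, edgeR adjusted p = 0.448). In the cord Hspa8 had 864, 1374, 1693, 912 and 1138 in WT and 1213, 1157, 1183, 1043 and 945 in SCA7, with a change of -0.13 (SE 0.24). The SCA7 cord libraries all lay inside the WT range.

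The inducible genes Hspa1a and Hspa1b were at the edge of detection, and their transcripts are 99.2% identical over 2201 bases, so counts of uniquely mapped reads may be split or lost between them. Hspa1a had 3.02 and 2.91 CPM in the deep WT medulla libraries and 2.44 and 2.02 in the deep SCA7 ones, and 0 counts in all 6 shallow medulla libraries. Deep cord libraries had 5.88 and 3.42 CPM in WT against 2.0 in both SCA7 libraries, and shallow ones 0 except SCA7 replicate 2, where 2 counts gave 14.4. These deep SCA7 values lay under the deep WT values in both tissues, with 2 libraries a group. Hspa1b had 1.99 and 1.16 against 1.47 and 1.24 in the deep medulla and 2.57 and 1.60 against 1.11 and 0.973 in the deep cord. Its shallow libraries held 0 counts except for 1 count each in medulla WT replicate 1 and cord SCA7 replicate 3. So no group at 9 weeks reached a level of Hspa1a or Hspa1b near that of Hspa8, and neither gene was called, with changes from -0.91 to -0.23 on the log2 scale. These fits follow the deep libraries. In the cord the means over 5 libraries had the other sign, from 1.859 CPM in WT to 3.675 in SCA7 for Hspa1a. For Hspa1b they went from 0.8338 to 1.668. Of the others in this group, Hspa2 (0.38, SE 0.16) and Hspa4 (-0.51, SE 0.23), an Hsp110 relative, had unadjusted p-values of 0.032 and 0.0476 in the medulla and missed the threshold. Hspa4l, Hspa12a and Hspa14 ran from -0.23 to 0.28 over both tissues.

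The Hsp90 group had 0 of 6 members called in either tissue. Changes were negative for 4 of 6 in medulla (median -0.08) and for all 6 in cord (median -0.31), and with library totals the median of all genes in cord moved from -0.02 to 0.28. Hsp90aa1 had 968, 663, 922, 1044 and 804 CPM in WT medulla and 788, 2168, 706, 624 and 625 in SCA7. The value of 2168 came from the library rich in mitochondrial reads, and the change was 0.19 (SE 0.35, edgeR adjusted p = 0.84). In the cord Hsp90aa1 had 976, 986, 1009, 852 and 809 in WT and 737, 668, 726, 694 and 670 in SCA7. These groups did not overlap, yet the change of -0.42 (SE 0.19) had an edgeR adjusted p of 0.252.

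Hsp90ab1 had 1111, 1248, 1184, 913 and 1190 CPM in WT medulla and 880, 1738, 983, 1007 and 1044 in SCA7, and its highest value again came from SCA7 replicate 2. Its change was 0.04 (SE 0.21) in medulla. Cord libraries had 1544, 926, 1084, 869 and 1096 against 1036, 834, 820, 861 and 972, overlapping groups with a change of -0.30 (SE 0.20). Chordc1, an Hsp90 co-chaperone, is named after its values were seen. It had 75.8, 67.8, 122, 49.3 and 71.0 CPM in WT medulla and 50.3, 13.4, 14.6, 41.8 and 38.0 in SCA7. Only WT replicate 4 and SCA7 replicate 1 overlapped, and the change of -1.10 (SE 0.32) had an edgeR adjusted p of 0.0539, just over the threshold. In the cord Chordc1 changed by -0.41 (SE 0.30).

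Deep medulla libraries alone, 2 against 2, called more. There 8 of 44 members passed, against 15.6% of all genes, a share near the background. They were Hsph1, Hspa4, Chordc1, Stip1, Ahsa1, Hsf1 and Dnajb2, which were lower in SCA7, and Dnajb4, which was higher. Stip1, the adaptor that hands clients from Hsp70 to Hsp90, had 238 and 242 CPM in the deep WT libraries and 182 and 175 in the deep SCA7 ones, and Chordc1 had 67.8 and 71.0 against 41.8 and 38.0. With the depth class as a block over all 10 medulla libraries 5 members were called, against 12.6% of all genes, with Hspa4 (-0.45), Hsph1 (-1.10) and Chordc1 (-0.82) lower and Dnajb4 (0.39) and Hspb8 (0.50) higher. The same fit in the cord called 3 (Hspb1, Hsph1 and Bag3), against 4.64% of all genes. Deep cord libraries alone called 0 members and 0 of all 19218 genes. Hsph1 was called in the other 3 of these fits.

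J-domain proteins had 0 of 10 members called in either tissue, with medians of 0.06 and 0.11 and a range from -0.63 (Dnajb2, cord) to 0.70 (Dnajb4, cord). Dnajb1, the main partner of Hsp70 in the stress response, had 16.8, 49.5, 57.1, 49.3 and 44.4 CPM in WT medulla and 16.8, 26.8, 36.4, 50.7 and 46.4 in SCA7. Cord libraries had 43.1, 29.9, 83.4, 43.0 and 44.9 against 46.1, 21.6, 18.8, 46.6 and 43.0. Its groups overlapped in both tissues, with changes of -0.11 (SE 0.29) and -0.33 (SE 0.32). In the deep libraries alone Dnajb1 lay between 43.0 and 50.7 CPM whatever the genotype. Dnajb6, a suppressor of polyglutamine aggregation, changed by 0.26 (SE 0.37) in the medulla and -0.0036 (SE 0.38) in the cord.

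Hspb1, Hspb8 and Bag3 were the members called between the tissues. Bag3 links Hsp70 and Hspb8 to the clearance of aggregates by autophagy, and Hspb1 is the Hsp27 of mice. In WT mice at 9 weeks, 3 of 44 members were higher in the cord than in the medulla of the same mouse, against 7.63% of all 19838 genes called in either direction, a share near the background. They were Hspb1 by 1.74 (SE 0.18, edgeR adjusted p = 2.12e-06), Hspb8 by 1.25 (SE 0.16, edgeR adjusted p = 1.78e-05) and Bag3 by 0.87 (SE 0.17, edgeR adjusted p = 0.0024). Among WT mice only replicate 5 had deep libraries of both tissues. Replicate 1 was deep in the cord alone, replicate 2 in the medulla alone, and replicates 3 and 4 in neither. Shallow libraries hold few counts of these genes, so the WT difference within mice rests largely on replicate 5. The change with SCA7 then differed between the tissues for the same 3 genes and no other member, against 2.78% of all genes. The change in the cord minus that in the medulla was -1.12 for Bag3 (SE 0.22, edgeR adjusted p = 0.00337), -1.02 for Hspb8 (SE 0.19, edgeR adjusted p = 0.00294) and -0.93 for Hspb1 (SE 0.23, edgeR adjusted p = 0.0264). Both tests use the WT libraries, which count in 1 with a plus and in the other with a minus sign, so the pair of results is not independent.

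Bag3 had 33.7, 31.9, 49.0, 0 and 29.5 CPM in WT medulla and 25.1, 33.5, 36.4, 33.8 and 37.3 in SCA7 medulla. Cord libraries had 47.1, 39.8, 41.7, 51.6 and 56.1 in WT and 15.3, 14.4, 25.1, 32.9 and 28.2 in SCA7. The cord groups did not overlap, although within the cord alone the change of -0.91 (SE 0.28) had an edgeR adjusted p of 0.0754. The medulla groups overlapped, with a change of 0.24 (SE 0.37).

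Hspb1 had 8.42, 5.38, 16.3, 8.22 and 9.19 CPM in WT medulla and 16.8, 40.3, 7.28, 11.4 and 6.57 in SCA7 medulla. Cord libraries had 45.1, 49.8, 16.7, 51.6 and 29.5 in WT and 23.0, 28.8, 25.1, 20.6 and 11.8 in SCA7. The groups overlapped in both tissues, with changes of 0.42 (SE 0.33) and -0.99 (SE 0.39). Hspb8 had 33.7, 22.5, 32.6, 8.22 and 30.6 against 8.38, 26.8, 14.6, 38.7 and 36.2 in the medulla. In the cord its values were 83.2, 69.7, 25.0, 17.2 and 73.6 against 23.0, 43.1, 25.1, 50.6 and 37.5, also overlapping, and the changes were 0.27 (SE 0.35) and -0.65 (SE 0.34). Shallow libraries held 0 to 7 counts of these 3 genes, and the deep ones at least 205. In the deep libraries Hspb1 was at 45.1 and 29.5 CPM in WT cord and 20.6 and 11.8 in SCA7 cord, and at 5.38 and 9.19 and 11.4 and 6.57 in the medulla.

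**Figure D3:**
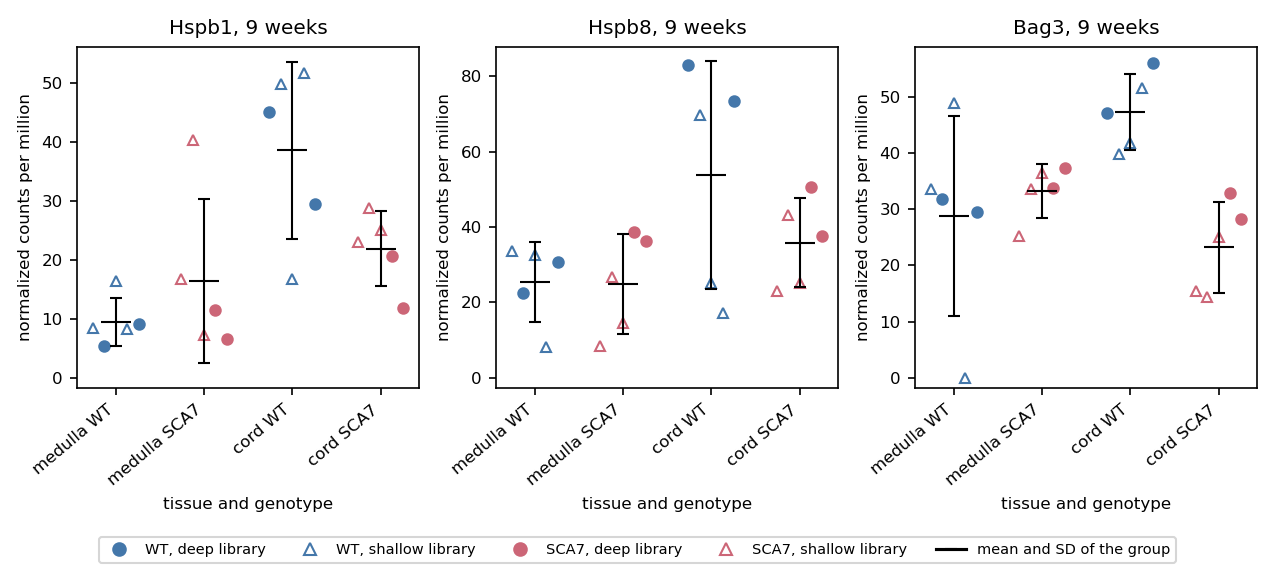
Levels of Hspb1, Hspb8 and Bag3 (y axes, normalized CPM) in each 9-week library by tissue and genotype (x axes), filled circles for deep and open triangles for shallow libraries, with the mean and SD of 5 mice. The WT cord libraries of Bag3 (39.8 to 56.1) lie above all SCA7 cord libraries (14.4 to 32.9), while the medulla groups overlap for all 3 genes.

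Markers of the meninges and vessel walls also differed between these groups. Of 10 listed genes of meningeal fibroblasts and smooth muscle, 8 were higher in the cord than in the medulla of WT mice, 8 were lower in SCA7 cord than in WT cord and 3 were higher in SCA7 medulla, and all 10 had a change that differed between the tissues (median of the difference -3.81). Their summed level was 109.5 to 740 CPM in WT cord, 76.8 to 132 in SCA7 cord, 82.2 to 200 in WT medulla and 117 to 288 in SCA7 medulla, and none was at 0 in any of these groups. Within WT cord the sums in replicate order were 174.8, 109.5, 266.9, 740 and 496.3 CPM. In the same order Hspb1 had 45.07, 49.79, 16.68, 51.63 and 29.49 CPM. Hspb8 had 83.15, 69.71, 25.02, 17.21 and 73.58, and Bag3 had 47.15, 39.84, 41.71, 51.63 and 56.06. WT cord replicates 2, 3 and 4 were shallow, so their values of these 3 genes rest on few counts. Lum, which marks fibroblasts, changed by -3.65 in the cord, and Tagln, which marks smooth muscle, by -3.28 in the cord and 1.30 in the medulla (edgeR adjusted p 0.00584, 0.0125 and 0.00967). Without WT replicate 5, the only WT mouse with deep libraries of both tissues, 0 members were called in either test. Its summed marker level in the deep cord library was 496 CPM. All genes called fell too without this mouse, to 0.056% for the difference between the tissues and 0.219% for cord against medulla in WT. Without SCA7 replicate 4 or SCA7 replicate 5 that difference had 0 called members, with 1.47% and 1.45% of all genes called, and cord against medulla in WT kept Hspb1 and Hspb8. Without any other single mouse, deep or shallow, the 3 genes stayed called in both tests. DESeq2 did not call the difference either (adjusted p = 0.49 for Bag3, the smallest of the 3, with 0.0706% of all genes called), nor did edgeR without the mouse block (0.475 to 0.771, with 0.504% of all genes called). All of these fits kept the negative sign. Hspb1 also has 2 near-identical copies elsewhere in the genome, so its counts are uncertain. The part of meningeal and vessel tissue in these values was not tested.

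Hspb6 changed by 0.18 (SE 0.19) in the medulla and -0.90 (SE 0.42) in the cord. The fit works on counts, so that for rare genes it follows the deep libraries, and in the medulla its sign went against the mean over 5 libraries for Hspb6, Hspb8 and Hsf1. Hspb6 averaged 9.63 CPM in WT and 6.21 in SCA7 (deep libraries 7.46 and 8.54), and Hspb8 25.5 and 24.9 (deep libraries 26.5 and 37.5). Hsf1, the master regulator of the heat shock response, had 8.42, 33.6, 24.5, 16.4 and 33.2 CPM in WT medulla and 25.1, 13.4, 36.4, 25.9 and 24.1 in SCA7. Cord libraries had 47.5, 0, 25.0, 43.0 and 30.8 against 0, 7.19, 18.8, 29.4 and 25.8. The groups overlapped in both tissues, and the changes of -0.14 (SE 0.31) and -0.66 (SE 0.49) were not called. Its medulla means were 23.2 in WT and 25.0 in SCA7 (deep libraries 33.4 and 25.0).

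The 4 endoplasmic reticulum chaperones had 0 called members, from -0.28 to 0.49 in medulla and -0.25 to 0.26 in cord. Hspa5 (BiP) had 219, 219, 286, 214 and 227 CPM in WT medulla and 210, 161, 131, 217 and 211 in SCA7. Deep libraries put it at 219 and 227 against 217 and 211. Cord libraries had 221, 219, 192, 215 and 242 against 176, 252, 207, 224 and 219, with a change of -0.03 (SE 0.19), so the groups overlapped in both tissues. Dnajc3, which slows the unfolded protein response kinase, lay at 65.3 to 74.4 CPM in WT medulla and 75.4 to 141 in SCA7, without overlap, but its change of 0.49 (SE 0.24) had an edgeR adjusted p of 0.282. In the cord it overlapped widely (62.6 to 155 against 46.1 to 97.2). The 3 members with the endoplasmic reticulum stress element thus took different signs in the medulla, with Hspa5 and Hsp90b1 at -0.28 each and Dnajc3 at 0.49.

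The mitochondrial chaperones Hspa9, Hspd1 and Hspe1 had 0 called members. Hspd1, the mitochondrial Hsp60, had 152, 131, 188, 123 and 140 CPM in WT medulla and 117, 73.8, 146, 120 and 113 in SCA7. Its lowest value was from the library rich in mitochondrial reads, and the change was -0.32 (SE 0.22). Cord libraries had 115, 99.6, 142, 138 and 145 against 123, 144, 150, 120 and 109, with a change of -0.02 (SE 0.22). Hspe1, which shares its promoter, changed by 0.25 (SE 0.29) and -0.52 (SE 0.31), so these genes' point estimates took opposite signs in the medulla, a difference that was not tested.

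TRiC had 0 of 7 subunits called in either tissue, and 6 of 7 had positive changes in each (medians 0.12 and 0.33). Tcp1, its first subunit, had 126, 187, 220, 115 and 204 CPM in WT medulla and 159, 221, 226, 221 and 232 in SCA7. Cord libraries had 196, 99.6, 150, 198 and 195 against 176, 187, 238, 248 and 232. The changes were 0.34 (SE 0.21) and 0.34 (SE 0.21), with the groups overlapping in both. Cct4 did not overlap in the cord (59.8 to 111 in WT, 116 to 151 in SCA7), with a change of 0.41 (SE 0.22) and an edgeR adjusted p of 0.36. In the medulla the subunits ran from -0.07 (Cct5) to 0.41 (Cct2).

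Of the folding genes listed beside the members, few were called at 9 weeks. Among 27 other cytosolic co-chaperones, of which 26 were tested in medulla, Cryab and Hspb2 were called in both tissues. Cryab, the small heat shock protein abundant in oligodendrocytes and astrocytes, fell by 1.23 (SE 0.30, edgeR adjusted p = 0.0226) in the medulla, from 166 ± 39.8 (SD, n = 5) to 65.0 ± 30.3 CPM (SD, n = 5). In the cord it fell by 1.72 (SE 0.34, edgeR adjusted p = 0.00728), from 260 ± 142 to 75.7 ± 33.9 (SD, n = 5). Hspb2 lies against Cryab on the other strand and the strand setting of the counting is not given in the sources used here. Its highest library had 1.76 CPM, and its fitted changes were 0.96 in the medulla and -1.77 in the cord. Of 20 further endoplasmic reticulum genes, Sdf2l1 fell by 0.96 in the medulla and Calr, a calcium-binding chaperone, by 0.88 in the cord (edgeR adjusted p 0.0072 and 0.0171). None of 32 other J-domain genes (31 and 30 of them tested), 10 prefoldin and chaperonin genes and 9 mitochondrial folding and protease genes was called in either tissue.

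At 5 weeks 0 of 44 members were called in the medulla (0.846% of all genes) and 0 in the cord (0.728%), with 2 mice a group. At an unadjusted p under 0.05 there were 9 members in the medulla, with 1992 of all 18432 genes, and 3 in the cord, with 707 of all 17162. Hsph1 had 285 and 280 CPM in WT medulla and 106 and 238 in SCA7 medulla, and 369 and 304 in WT cord against 164 and 295 in SCA7 cord. Both SCA7 values were under both WT values in each tissue, in a design of 2 against 2. All SCA7 libraries here were shallow, and the value of 106 rests on 12 counts. Both WT medulla libraries and 1 of the 2 WT cord libraries were deep. In the medulla, genotype and depth thus cannot be told apart. At 9 weeks shallow and deep medulla libraries averaged 187.7 and 270.9 CPM of Hsph1 in WT, and 67.87 and 129.3 in SCA7. The log2 changes were -0.58 (SE 0.31) in medulla and -0.38 (SE 0.38) in cord, neither called. A difference of the change between 9 and 5 weeks was called by edgeR for 0 members in either tissue, with 0% of all genes in the medulla and 0% in the cord. In that test 2 of 44 members in each tissue had an unadjusted edgeR p under 0.05, a cutoff that chance passes about 1 time in 20. They were Hspa8 and Dnajc7 in the medulla and Hspb1 and Tcp1 in the cord, and they are not read as changed.

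At P8 0 members were called in the medulla, where 0% of all genes were called, and 0 in the cord, where 0.00503% (1 gene) were called, and 0 members had an unadjusted p under 0.05 in either tissue. Hsph1 had 115 and 100 CPM in WT medulla against 111 and 48.5 in SCA7, and 123 in the single WT cord against 80.8 and 64.5. The low SCA7 medulla value was from a shallow library with 5 counts. DESeq2 called 0 members there as well. The cord test has 1 WT library, which is deep while both SCA7 libraries are shallow, so genotype and depth cannot be told apart there. It takes its spread from all cord libraries and assumes that this library varies like the others.

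From P8 to 5 and 9 weeks, Hsph1 and Stip1 rose in the WT medulla and Hspa2, an Hsp70 known best from the testis, fell. At 9 weeks against P8, 3 of 44 members were called against 21.8% of all genes, with Hsph1 up by 1.01 (SE 0.33, edgeR adjusted p = 0.0358), Stip1 up by 0.81 (SE 0.19, edgeR adjusted p = 0.00561) and Hspa2 down by 1.17 (SE 0.21, edgeR adjusted p = 0.000626). The same 3 were called at 5 weeks against P8, against 18.5% of all genes, by 1.27, 0.79 and -1.07. These comparisons share the P8 libraries. Hsph1 went from 115 and 100 CPM at P8 to 285 and 280 at 5 weeks. Stip1 went from 127 and 110 to 218 and 229, and Hspa2 from 41.6 and 36.8 to 20.7 or less, without overlap. All of these P8 and 5-week libraries were deep. With library totals the signs held, and Hspa2 at 9 weeks alone stayed called (edgeR adjusted p = 0.0381).

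**Figure D4:**
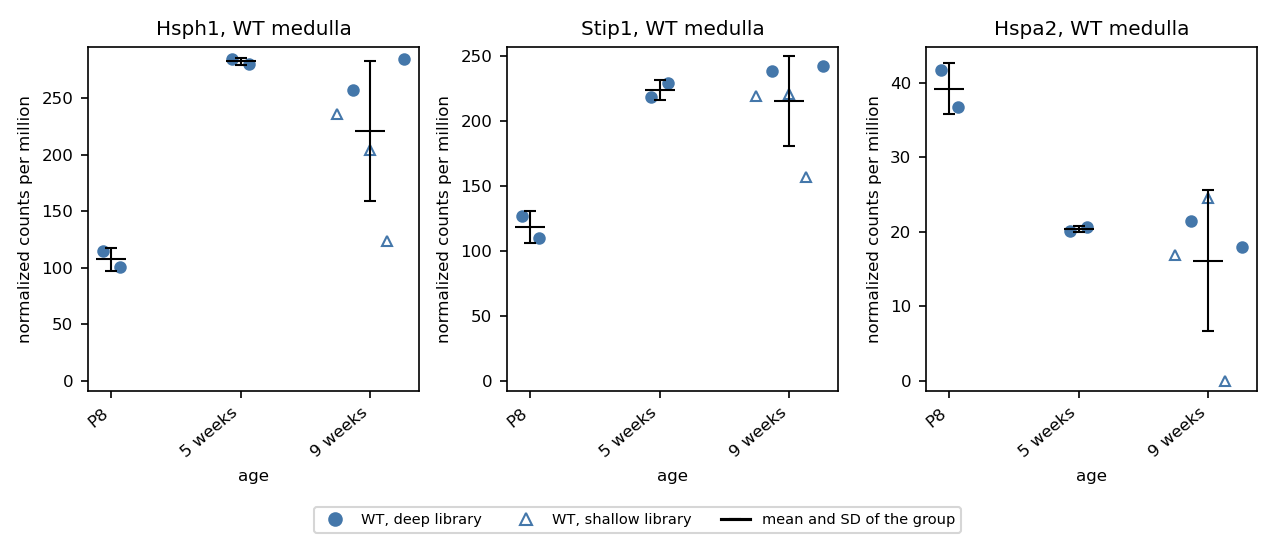
Levels of Hsph1, Stip1 and Hspa2 (y axes, normalized CPM) in each WT medulla library at P8, 5 weeks and 9 weeks (x axes), filled circles for deep and open triangles for shallow libraries, with the mean and SD. Hsph1 stands at 100 to 115 at P8 and 280 to 285 at 5 weeks, and 1 shallow 9-week library holds 0 counts of Hspa2.

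The deep WT medulla libraries alone called 18 members at 9 weeks against P8 (12 higher, 6 lower), against 37.5% of all genes, and 19 at 5 weeks, against 36.9%, shares near the background. Hspa4l rose most among them at 9 weeks, by 1.46, and Hsph1 followed at 1.28. Hsp90aa1, Ahsa1 and Chordc1 rose by 0.66, 0.59 and 0.44. Hspa5 fell by 0.55, and Hspd1 and Hspe1 fell by 0.30 and 0.33. In SCA7 mice the medulla called 1 member at 9 weeks against P8 (Dnajb4, 0.85, SE 0.26), against 16.1% of all genes, and the cord called 0, against 4.18%. Hsph1 changed there by 0.05 (SE 0.35) in the medulla, from 111 and 48.5 CPM to between 47.0 and 138. Whether that differs from the WT course was not tested.

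Some members differed with depth. In the medulla 7 of 44 members differed between deep and shallow 9-week libraries with genotype in the fit, against 6.98% of all genes, and in the cord 3, against 3.47%. Hspa4l was higher in deep libraries in both tissues (1.25 and 0.98), as were Hspa12a and Dnajc6 in the medulla (1.02 and 0.66). Dnajb6 (-0.99 and -1.12) and Dnajc5 (-0.83 and -0.96) were lower in deep libraries in both, and Dnaja1 (-0.84) and Hsp90aa1 (-0.83) in the medulla. Near-identical copies elsewhere in the genome were found for Dnajb6, Dnaja1 and Hsp90aa1 but not for Dnajc5. With library totals in place of TMM scaling, 5 members were called in the medulla and all were higher in deep libraries, against 15.8% of all genes, of which 89.4% were higher, and the median of all genes moved from 0.31 to 0.91. In the cord, library totals called 6, of which 5 were higher, against 6.74% of all genes, of which 73.7% were higher. At 5 weeks in the medulla, where depth follows genotype, the changes of these 7 members were -0.95 for Hspa4l, -0.75 for Hspa12a, -0.70 for Dnajc6 and 0.67 for Dnaja1, with unadjusted p-values under 0.05, and 0.28 for Dnajc5, 0.13 for Hsp90aa1 and -0.06 for Dnajb6, without. Shallow against deep libraries at 9 weeks had the same sign for all of them but Dnajb6, and 5 other members with an unadjusted p under 0.05 at 5 weeks were not called for depth.

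**Figure D5:**
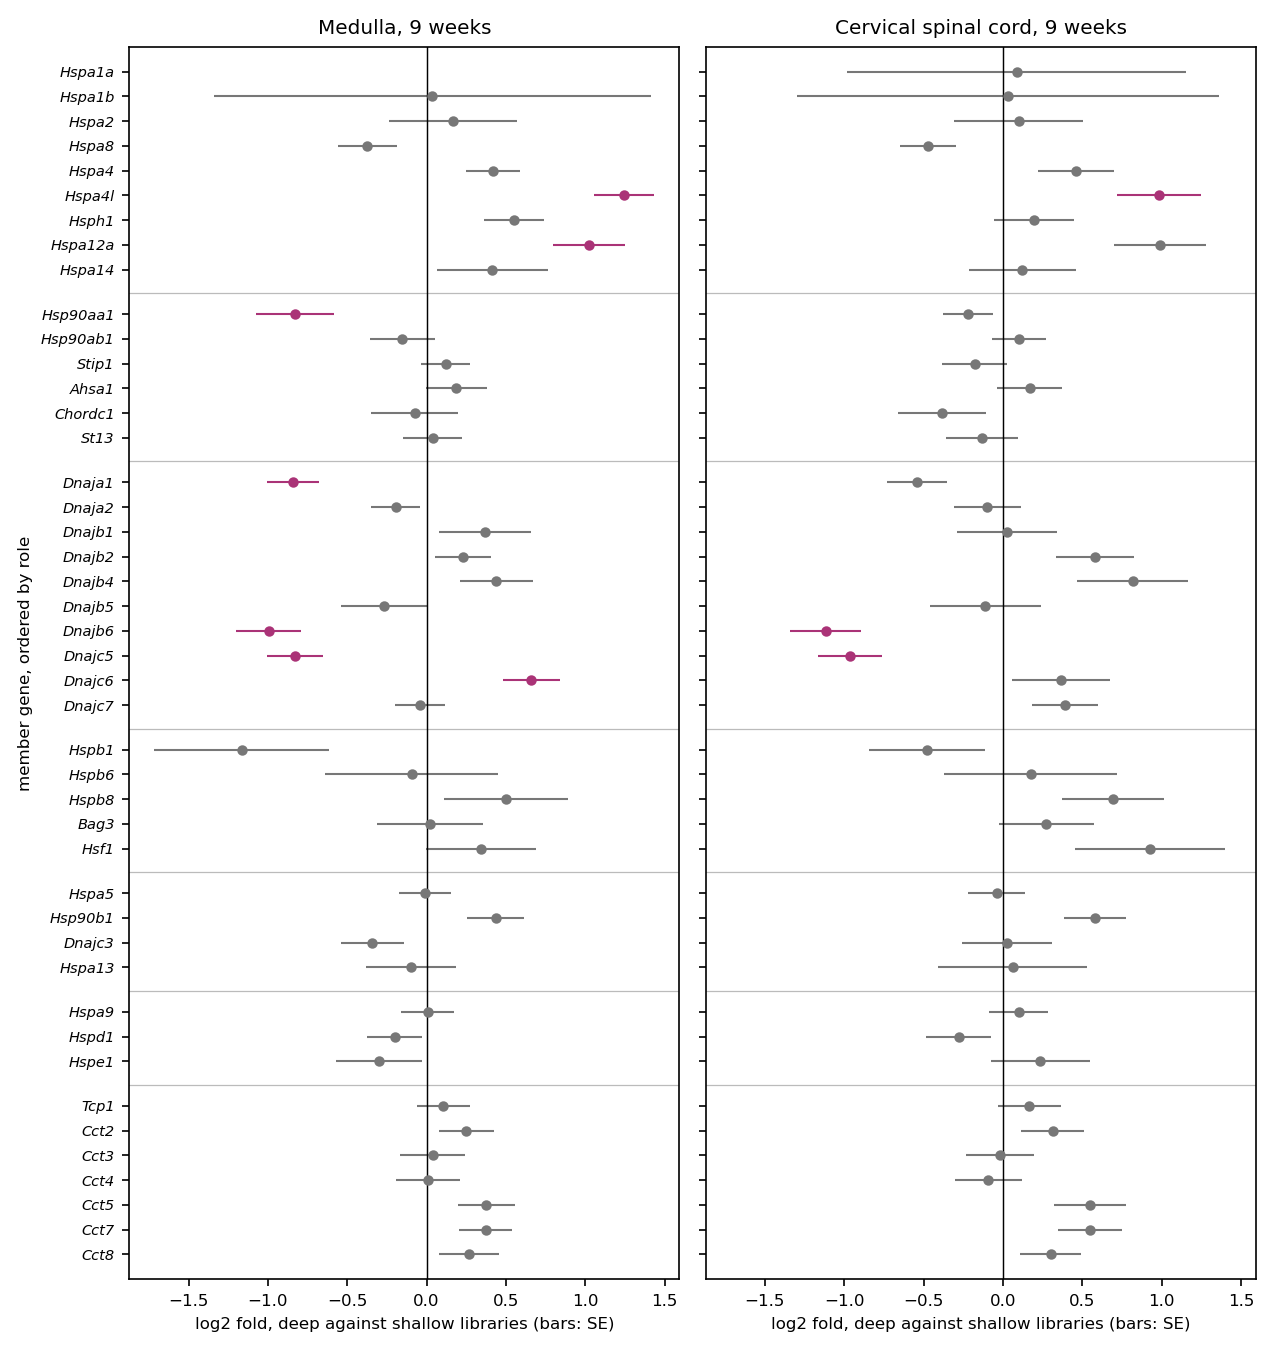
Log2 difference between deep and shallow libraries at 9 weeks with genotype in the fit (x axis, bars are the SE) for the members ordered by role (y axis), medulla left and cord right, 4 deep and 6 shallow libraries each. Coloured points are called, 7 in the medulla and 3 in the cord, and Hspa1a is not drawn in the medulla because its shallow libraries held 0 counts.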

How the data were processed

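The authors deposited raw read counts per gene symbol, 1 table per library, whole numbers with no normalization. By the study's methods the reads were mapped to GRCm38 and reads with a single location were kept, and the labels give the build as mm10. The aligner, the counting tool and its strand setting are not given in the sources used here. Counts were tested in edgeR 4.0.16 (R 4.3.3) with the legacy quasi-likelihood test, TMM scaling, a minimum of 10 counts in 1 or more libraries per gene, and Benjamini-Hochberg adjustment over all genes tested at 0.05. Each tissue and age was fitted on its own groups. Fits over ages and the P8 cord used all libraries of the tissue, and tests between tissues used the mouse as a block. The quoted SE is the log2 change divided by the root of F. For some genes edgeR's p can be larger than this SE implies. Deep libraries hold over 1000000 counts.

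The 44 members and all gene lists (roles, other folding genes, cold-inducible genes, cell type markers) were chosen with earlier results of these data known. Per-library values are given for members called at 9 weeks and for 13 members named whatever their test. Values of Chordc1, Stip1, Hspa2, Hspb8, Dnajc3 and Cct4 were added after they were seen, and called genes of the other lists may be named. Scripts were tested on simulated data. Alternatives were DESeq2 1.42.0, limma 3.58.1 (voom), other scalings, filters, blocks and depth classes, and each library left out. BLAST 2.17.0 found near-identical stretches in other genes for 15 of the 44 members. For Tcp1, Cct7, Dnajc7, Hsp90b1 and Hspa14 the longest was in a gene whose exons overlap the member, not in a copy elsewhere. No library pair was a duplicate within sampling noise (smallest chi-square per degree of freedom 1.12 over 21 pairs). Replicates are separate mice by the labels. Intervals and floors cover counting error only.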

Additional observations from a re-analysis of the deposited data

Results flagged for a closer look

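Single libraries stood far from the rest of their group in 8 of the 56 groups of 5 that were checked by Dixon's ratio. Its cutoff is passed by chance about 1 time in 20 where all 5 values have the same spread. Deep and shallow libraries differ in spread and the genes share libraries, so that rate does not apply here. Medulla SCA7 replicate 2, the library rich in mitochondrial reads, had 2170 CPM of Hsp90aa1 (323 counts, next library 788) and 1740 CPM of Hsp90ab1 (259 counts, next 1040). Of the others, 3 rest on 1 or 2 counts in a shallow library, namely 14.4 CPM of Hspa1a in cord SCA7 replicate 2, 8.42 CPM of Hspa1b in medulla WT replicate 1 and 6.26 CPM of Hspa1b in cord SCA7 replicate 3. The remaining ones were Dnajb1 at 83.4 CPM in cord WT replicate 3 (10 counts, next 44.9), Hspa5 at 286 CPM in medulla WT replicate 3 (35 counts, next 227) and Tcp1 at 159 CPM in medulla SCA7 replicate 1 (19 counts, next 221). All 8 were in shallow libraries.

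The SCA7 change differed between the tissues, by edgeR's interaction term with the mouse as a block, for Hspb8 (-1.02), Hspb1 (-0.928) and Bag3 (-1.12), each as the log2 change in cord minus that in medulla.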

How the results depend on the processing

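Counts of called members at 9 weeks (1 in each tissue) moved with the setting. In medulla they were 0 with library totals (5.37% of all genes called), 0 with at least 10 counts in every library (1.29%), 0 with bias-adjusted quasi-likelihood (0.131%), 8 in deep libraries alone (15.6%), 0 in shallow libraries alone (0.0457%), 5 with the depth class as a block (12.6%) and 11 with limma-voom (15.4%), and 0 to 2 with 1 library left out. In cord they were 0 with library totals (4.42%), 0 with at least 10 counts in every library (5.12%), 0 with no filter (1.97%), 0 in deep libraries alone (0%), 3 with the depth class as a block (4.64%) and 3 with limma-voom (2.7%), and 0 to 3 with 1 library left out. With at least 10 counts in every library only 18 of the 44 members were tested in each tissue, and Hsph1 was not among them in the medulla, so that the filter itself sets the 0 there. Hsp90ab1 in medulla turned from 0.04 to -0.2057 with limma-voom (adjusted p = 0.0033). The difference between tissues (3) gave 0 with DESeq2, 1 with library totals (Bag3), 0 with at least 10 counts in every library, 0 with bias-adjusted quasi-likelihood, 0 without the mouse block, 0 among mice shallow in both tissues and 0 to 3 with 1 library left out. Cord against medulla in WT (3) gave 0 with at least 10 counts in every library, 1 with bias-adjusted quasi-likelihood, 1 without the mouse block, 0 among shallow mice and 0 to 3 with 1 library left out. Among shallow mice, and with at least 10 counts in every library (13 members tested), Hspb1, Hspb8 and Bag3 had too few counts to be tested.

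At 5 weeks (0) medulla gave 2 with the replicate block and 1 when thinned to equal depth, and cord 0 to 3 with 1 library left out, with 3 without WT replicate 1. WT medulla at 9 weeks against P8 (3) gave 1 with library totals, 1 with at least 10 counts in every library, 1 with bias-adjusted quasi-likelihood, 18 in deep libraries alone, 12 with the depth class in the fit and 1 to 3 with 1 library left out. WT at 5 weeks against P8 (3) gave 0, 0 and 0 under the first 3 of these, 19 in deep libraries alone and 1 with any library left out. SCA7 medulla at 9 weeks against P8 (1) gave 0 with DESeq2, 0, 0 and 0 under those 3, 5 with the depth class in the fit and 0 to 3 with 1 library left out, and the cord (0) gave 1 with DESeq2 and 2 with at least 10 counts in every library. Deep against shallow gave 4 in medulla (7) with bias-adjusted quasi-likelihood, and in cord (3) 5 with DESeq2, 6 with library totals, 5 with at least 10 counts in every library and 2 to 7 with 1 library left out. For the 9 comparisons with any called member, 78 alternative counts stayed within 1.5 times, 49 were lower and 17 higher; for the 7 with 0 called members, 87 stayed at 0 and 5 were higher. The share of all genes called moved as well. In medulla at 5 weeks it was 3.04% with the replicate block and 6.93% when thinned. In WT medulla against P8 it was 37.5% (9 weeks) and 36.9% (5 weeks) in deep libraries alone. With the depth class in the fit at 9 weeks it was 29.6% in WT and 22.7% in SCA7 medulla. SCA7 cord against P8 had 3.27% with DESeq2 and 23% with at least 10 counts in every library (12 members tested). The cause was not tested. The depth class terms of the age comparisons and the fits on shallow mice were chosen after seeing the data.

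WT and SCA7 libraries of 1 number share only that number. At 9 weeks their deviations correlated from -0.776 to 0.926 over 2421 genes in medulla. In both tissues the sign was positive where both libraries had the same depth class and negative where they did not. The replicate number thus partly follows depth, and a block on it is not a pairing of mice. With that block Hsph1 stayed called in medulla (edgeR adjusted p = 0.00482) and in cord (edgeR adjusted p = 0.00211). Depth limits the rare members most, since a shallow library held 681 to 2588 counts over all 44 members.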
